A study of Mus musculus with 2 samples.

Results

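The nuclear genome of the mouse carries most of the genes of oxidative phosphorylation, and 93 of them were followed here through the cells of the postnatal molar. The members were taken by name, as every gene symbol of the deposited gene list that starts with Nduf, Uqcr, Atp5, Cox4, Cox5, Cox6, Cox7 or Cox8. Of 95 such symbols, 1 pseudogene symbol (containing -ps) and 1 gene without a single UMI, Cox8c, were left out, which left 93 of 34285 listed genes, or of 25846 with at least 1 UMI (unique molecular identifier, the tag that marks one captured transcript). They comprise 39 genes of complex I, 8 complex I assembly factors, 8 genes of complex III, 17 of complex IV, 19 of complex V and the pair Ndufa4 and Ndufa4l2. The pair is kept apart because its products carry a complex I name but are associated with complex IV. The rule itself uses no difference between cell types or libraries, and its 1 measured value is the lack of any UMI. It was set with earlier results of these data known.

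The cells came from C57BL/6J mice, whose mandibular first molars and surrounding tissue were dissociated at postnatal day PN15.5 and profiled by droplet single-cell RNA sequencing (10x Genomics) to ask how the loss of macrophages affects the developing root. In the Lipo-Clo group, mice received intraperitoneal clodronate liposomes, which kill phagocytes that take them up, at 40 µg/g in 4 injections between PN3.5 and PN12.5, spaced 3 days apart. In the Lipo-PBS group, mice received vehicle liposomes at the same ages. There was 1 library per group, each listed as replicate 1, and the number of mice behind each library is not given in the sources used here. With no replicate, no difference below was tested, and the library and the treatment cannot be told apart. Every interval is an exact 95% interval for counting error alone, and a gene is counted as past the limit by size, at a ratio of 1.3-fold or more between the 2 libraries.

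Oxidative phosphorylation takes place in the inner mitochondrial membrane. Complexes I and II feed electrons from NADH and succinate to ubiquinone, complex III passes them to cytochrome c, and complex IV hands them to oxygen. Complexes I, III and IV pump protons as they work, and complex V, the ATP synthase, uses the proton gradient to make ATP. All of these complexes except complex II mix subunits made from mitochondrial DNA with subunits made in the cytosol from nuclear transcripts and imported, so the 2 genomes must supply parts of the same machine. Several subunits of complex IV come in alternative forms encoded by separate genes, and Cox4i2 and Ndufa4l2 are known as forms induced at low oxygen and found in vessel-associated cells.

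After filtering, 8254 Lipo-Clo and 8261 Lipo-PBS cells with 26852424 and 25831678 UMIs remained, of which 462 and 921 lay in clusters that could not be named. The libraries shared 30 cell barcodes. The 2 libraries stood apart in 1 respect that touches every result here, since the 13 protein-coding mitochondrial genes held 0.370% of UMIs in Lipo-Clo and 1.73% in Lipo-PBS. Dental mesenchyme pooled 10 clusters named from mesenchymal, osteoblast, cementoblast or odontoblast markers, and the collagen gene Col1a2 and the fibroblast receptor Pdgfra were each among the markers of 8 of the 10. Of the targeted phagocytes, the class named macrophages held 127 cells in the Lipo-Clo library and 175 in the other. This count leaves out an unnamed cluster led by Cd74 and Ms4a6c, with 384 Lipo-Clo and 232 Lipo-PBS cells. That cluster carried 5 macrophage markers beside 6 of neutrophils and 4 of dendritic cells.

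Many genes of oxidative phosphorylation have promoters rich in G and C, where the factors NRF1, GABP, YY1 and SP1 are known to act. RefSeq (GRCm38.p6) gave 79 promoter windows for 74 of the 93 members (79.6%), each with 250 bases before the start. The 8-letter core of the NRF1 site, GCGCATGC on either strand, stood in 8 of 79 member windows (10.1%) and in 739 of 32817 windows of all genes (2.25%). In 60 of the 79 member windows the bases after the start were found among the first bases of a transcript of the gene. The rest, with Ndufa11 of the 8 among them, were kept in all counts of windows. The GABP letters CCGGAAGT stood in 3 member windows (3.80%) against 2.88% of all windows, the YY1 letters AAGATGGC in 1 (1.27%) against 1.56%, the SP1 letters GGGCGGG in 23 (29.1%) against 23.4%, and TATAAA in 7 (8.86%) against 12.4%. Of these letters the NRF1 core was thus the one whose share among members stood furthest from its share among all genes. The last 150 bases before the start follow for 6 members, 5′ to 3′ on the strand of the gene, with matches to the NRF1, GABP or SP1 letters on either strand in capitals. A run of 10 capitals holds NRF1 matches on both strands that overlap, and the capitals of Uqcrh are the GABP letters read on the other strand. Atp5mc2 and Atp5mc3 encode the same c subunit of the ATP synthase and lay far apart in the comparison of the libraries. The third c ring gene, Atp5mc1, had no match in its window and a log2 ratio of 0.43 in dental mesenchyme. Whether the letters go with the ratios was not tested. Ndufaf4 and Uqcrh show the NRF1 and GABP letters, and Cox6b1 and Cox6b2 are the widely used and the restricted form of one subunit of complex IV, with no match in the stretch printed. Their places are chr15:102671048-102671197 (minus strand) for Atp5mc2, chr2:73911327-73911476 (minus) for Atp5mc3, chr4:24897933-24898082 (plus) for Ndufaf4, chr4:116075071-116075220 (minus) for Uqcrh, chr7:30626115-30626264 (minus) for Cox6b1 and chr7:4753095-4753244 (minus) for Cox6b2.
Atp5mc2: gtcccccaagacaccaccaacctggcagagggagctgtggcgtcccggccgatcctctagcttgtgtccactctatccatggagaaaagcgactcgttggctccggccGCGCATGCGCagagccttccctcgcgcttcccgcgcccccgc
Atp5mc3: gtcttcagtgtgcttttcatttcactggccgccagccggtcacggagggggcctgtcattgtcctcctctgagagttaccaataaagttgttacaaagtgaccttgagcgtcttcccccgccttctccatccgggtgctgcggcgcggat
Ndufaf4: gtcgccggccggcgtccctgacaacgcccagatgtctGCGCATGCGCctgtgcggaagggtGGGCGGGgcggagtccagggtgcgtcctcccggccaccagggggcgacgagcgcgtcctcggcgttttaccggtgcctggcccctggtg
Uqcrh: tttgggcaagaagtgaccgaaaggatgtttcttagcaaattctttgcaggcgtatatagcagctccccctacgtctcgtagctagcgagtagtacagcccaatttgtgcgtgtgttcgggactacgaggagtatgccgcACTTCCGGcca
Cox6b1: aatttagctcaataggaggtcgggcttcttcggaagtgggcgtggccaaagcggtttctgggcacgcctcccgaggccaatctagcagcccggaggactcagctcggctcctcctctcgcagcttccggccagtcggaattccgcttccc
Cox6b2: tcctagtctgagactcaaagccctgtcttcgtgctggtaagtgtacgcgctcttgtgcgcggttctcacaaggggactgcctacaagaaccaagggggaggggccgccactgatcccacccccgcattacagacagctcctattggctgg

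In dental mesenchyme (4295 Lipo-Clo and 4102 Lipo-PBS cells) the members together held 516566 of 14502274 UMIs in Lipo-Clo and 379928 of 13624194 in Lipo-PBS, which is 3.56% against 2.79%. The ratio was 1.28-fold, or 0.35 on the log2 scale (interval 0.35 to 0.36). This is a shift of many genes by a similar small step, and the sum itself lay just under the limit of 1.3-fold. Of the 93 members, 80 were in use, meaning a UMI in at least 10% of mesenchymal cells of either library, and 2 of these (the assembly factors Ndufaf3 and Ndufaf4) reached that share in Lipo-Clo only. 79 of the 80 were higher in Lipo-Clo, each with an interval above 0, and Ndufa4l2 was lower. Of all genes in use, 49.4% were higher. Past the limit of 1.3-fold were 27 of the 80 members (33.8%), where 9.2% of all genes in use (436 of 4738) were that much higher. No member was lower by as much, where 14.3% of all genes were. The median log2 ratio of the members was 0.34 (quartiles 0.28 and 0.40) and that of all genes in use −0.01.

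**Figure D1:**
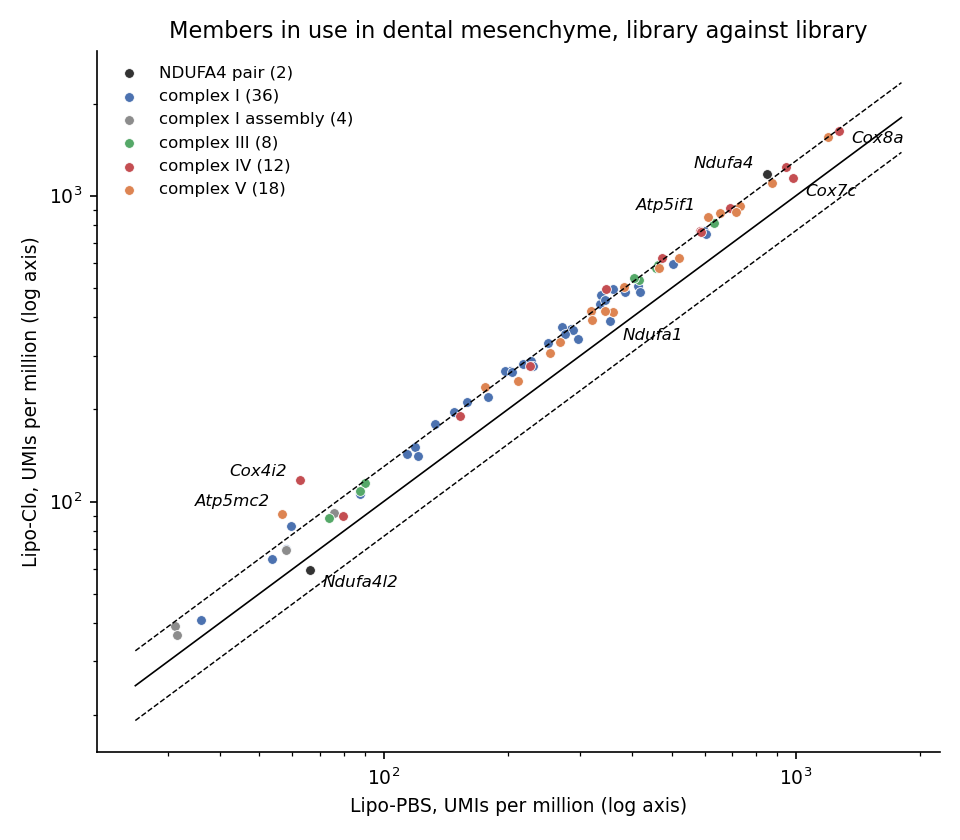
Each point is 1 of the 80 members in use in dental mesenchyme, with its CPM in Lipo-PBS (x axis) and Lipo-Clo (y axis), both on log axes, coloured by complex, with the number of members in brackets. The solid line marks equal levels and the dashed lines a ratio of 1.3-fold. The points run along the upper dashed line, Cox4i2 and Atp5mc2 lie furthest above it, and Ndufa4l2 alone lies below the solid line (a direction that turned when both libraries were given the same mixture of subclusters or cells were thinned).

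Complex I, the NADH dehydrogenase and the entry point for most electrons, had 36 of its 39 members in use and a summed log2 ratio of 0.34 (0.33 to 0.35), with 13 members past the limit. This sum, like those of the other groups of members, runs over all members of the group, in use or not. Its core subunits, which carry the flavin and the iron-sulfur clusters, and its accessory subunits, which build the shell around the core, gave sums of 0.36 (7 members, 6 of them in use) and 0.34 (30 members, all in use). The accessory subunit Ndufb9 had the highest ratio, with 6852 UMIs in Lipo-Clo and 4582 in Lipo-PBS. These are 472 and 336 counts per 1000000 UMIs of the class (CPM), which gave a log2 ratio of 0.49 (0.44 to 0.54). Ndufa1 and Ndufa9 were lowest among those in use, with 5628 against 4815 UMIs (log2 ratio 0.13, 0.08 to 0.19) and 595 against 491 (0.19, 0.01 to 0.36). The members with the largest counts lay between these, at 0.36 for Ndufa13 (11146 against 8150 UMIs), 0.31 for Ndufa2 (10850 against 8241) and 0.25 for Ndufa7 (8681 against 6841). Ndufs1, the largest core subunit, narrowly missed the filter with a UMI in 9.43% and 9.97% of cells. Its counts of 444 and 451 gave a log2 ratio of −0.11 (−0.30 to 0.08), an interval that includes 0. The other members not in use were Ndufb4b, a copy of a subunit gene, with 109 and 91 UMIs, and Ndufb11b with none in this class.

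The assembly factors help to join complex I from its modules and are not part of the finished enzyme. The 8 together had a summed log2 ratio of 0.26 (0.20 to 0.33), and of the 4 in use none was past the limit. Ndufaf8 had 1334 against 1035 UMIs (log2 ratio 0.28), Ndufaf2 1010 against 789 (0.27), Ndufaf4 567 against 425 (0.33) and Ndufaf3 531 against 429 (0.22). Ndufaf1, Ndufaf5, Ndufaf6 and Ndufaf7 had between 160 and 280 UMIs per library and were not in use.

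Complex III, the cytochrome bc1 complex, had all 8 members in use and the narrowest spread of complexes I, III, IV and V, with log2 ratios between 0.26 and 0.42 and a sum of 0.36 (0.34 to 0.38). Uqcrq, a small subunit that binds next to cytochrome b, was the one member past the limit, with 7809 against 5502 UMIs (log2 ratio 0.42, 0.37 to 0.47). Uqcrb, Uqcr10 and Uqcrh were close behind, with log2 ratios of 0.37, 0.36 and 0.33 on counts of 11808 against 8601, 8610 against 6289 and 8379 against 6248. The core protein gene Uqcrc2 was lowest with 0.26 (1277 against 1005 UMIs), followed by Uqcrfs1, the Rieske iron-sulfur protein, with 0.31 (1573 against 1195).

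Complex IV, cytochrome c oxidase, had 12 of 17 members in use, a sum of 0.37 (0.35 to 0.38) and 6 members past the limit. Cox4i2 had the highest ratio of all members, with 1700 UMIs (117 CPM) in Lipo-Clo against 853 (62.6 CPM) in Lipo-PBS (log2 ratio 0.90, 0.79 to 1.03). Cox5a, a matrix-side subunit next to subunit 4, had 7189 against 4718 UMIs and a log2 ratio of 0.52 (0.46 to 0.57). Both lay above Cox8a (23643 against 17311 UMIs, log2 ratio 0.36), Cox6c (17983 against 12843, 0.40) and Cox7c (16602 against 13365, 0.22), and these intervals did not overlap. Cox7a2l, a factor that joins complexes III and IV into supercomplexes, was lowest with 1299 against 1084 UMIs (log2 ratio 0.17, 0.05 to 0.29). The forms best known from muscle or testis were near absent, with Cox7a1 at 51 against 28 UMIs, Cox6a2 at 6 against 12, Cox8b at 1 in each library and Cox7b2 at 0 against 1.

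Complex V had 18 of 19 members in use, a sum of 0.35 (0.34 to 0.36) and 6 members past the limit. The sums were 0.37 for the F1 head that makes ATP, 0.38 for the c ring that turns in the membrane, 0.30 for the peripheral stalk that holds the head still and 0.31 for the small membrane subunits that hold pairs of the enzyme together. The 3 genes of the c ring, which encode the same mature protein behind different import sequences, did not move together. Atp5mc2 had 1317 against 773 UMIs (90.8 against 56.7 CPM, log2 ratio 0.68, 0.55 to 0.81), Atp5mc1 12733 against 8886 (0.43, 0.39 to 0.47) and Atp5mc3 6051 against 4894 (0.22, 0.16 to 0.27). The 3 intervals did not overlap, and Atp5mc2 made up 6.55% of the c ring UMIs in Lipo-Clo and 5.31% in Lipo-PBS. Atp5if1, the inhibitor that stops the enzyme from running backwards and consuming ATP, was second in the complex with 12372 against 8339 UMIs (853 against 612 CPM, log2 ratio 0.48, 0.44 to 0.52). Atp5f1a, the α subunit of the head, was second lowest at 0.23 (3604 against 2887 UMIs), and Atp5f1e (22518 against 16315), Atp5mg (15978 against 11925) and Atp5pd (13409 against 9974) lay at 0.37, 0.33 and 0.34. The gene list holds a second entry for Atp5po, with 56 against 42 UMIs, that was not in use, and reads may be split between it and the first entry (4449 against 3456 UMIs).

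The Ndufa4 pair diverged. Ndufa4, the form found in most tissues, had 17069 UMIs (1177 CPM) in Lipo-Clo against 11557 (848 CPM) in Lipo-PBS (log2 ratio 0.47, 0.44 to 0.51). Ndufa4l2 had 867 and 901 UMIs (59.8 and 66.1 CPM), a log2 ratio of −0.15 (−0.28 to −0.01), and this direction turned to 0.23 when both libraries were weighted to the same mixture of mesenchymal subclusters. Ndufa4l2 was higher in Lipo-Clo in 7 of 12 subclusters and lower in 5. The direction also turned, to 0.11, in cells thinned to 1000 UMIs. Thinning left out 390 Lipo-Clo and 282 Lipo-PBS cells below that depth and gave the rest equal weight, so the mixture was not held fixed there.

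The members also moved together within the mesenchyme. Dental mesenchyme was divided into 12 subclusters with at least 30 cells in each library, and the summed members were higher in Lipo-Clo in 12 of 12, each with an interval above 0. One of the 12, with 65 and 150 cells, was led by the haemoglobin genes Hbb-bs and Hba-a2 and by Alas2, which mark erythroid cells, and had a log2 ratio of 0.30. It stayed in the class and in the weighting to the same mixture. The log2 ratio was highest, 0.41 (0.38 to 0.43), in the subcluster led by the replication histone genes H1f5 and H2ac24, where the members held 41194 CPM in Lipo-Clo and 31108 in Lipo-PBS. It was lowest, 0.19 (0.16 to 0.22), in a subcluster led by the fibroblast genes Clec3b and Mfap5, with 30383 and 26604 CPM. The subcluster led by Dspp, the dentin matrix gene of odontoblasts, had the highest member level in both libraries, 43170 and 36625 CPM, and a log2 ratio of 0.24.

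Across classes, the members' share of UMIs differed more between cell types than between libraries. With both libraries summed, it ranged from 2.07% in neutrophils and 2.18% in erythroid cells to 3.62% in perivascular cells and 3.70% in epithelium, with dental mesenchyme at 3.19%. In Lipo-PBS alone the lowest were erythroid cells (1.89%) and neutrophils (2.08%) and the highest perivascular cells (3.38%) and epithelium (3.50%). The 84 members with at least 30 UMIs in their highest class mostly kept a level profile. In 79 of them the highest class stood less than 2-fold above the median class, and the median of this fold was 1.31. With both libraries summed, the highest class was B cells for 29 members, epithelium for 23 and perivascular cells for 16, and the lowest was neutrophils for 43 and erythroid cells for 34. This count weighs the libraries unequally, with 1128492 Lipo-Clo and 509542 Lipo-PBS UMIs in B cells and 755301 and 1385223 in perivascular cells. The members' share in B cells, 3.81% and 2.91%, was below that of perivascular cells in each library (4.07% and 3.38%).

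The library difference was seen in most classes. The summed members were higher in Lipo-Clo in 9 of 10 named classes, and in 8 of these the interval lay above 0. The log2 ratio was 0.39 in B cells (3.81% against 2.91% of UMIs), 0.38 in T and NK cells (3.63% against 2.78%), 0.33 in erythroid cells (2.37% against 1.89%), 0.32 in macrophages (3.51% against 2.82%) and 0.31 in glia (3.67% against 2.96%). It was 0.27 in perivascular cells (4.07% against 3.38%) and 0.16 in epithelium (3.90% against 3.50%). Endothelium, at 2.97% against 2.93%, had an interval that includes 0 (0.02, −0.003 to 0.05), as did neutrophils at 2.06% against 2.08% (−0.01, −0.04 to 0.02). The median share per cell was higher in Lipo-Clo in 10 of 10 classes, although the quartiles of the 2 libraries overlapped in each.

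**Figure D2:**
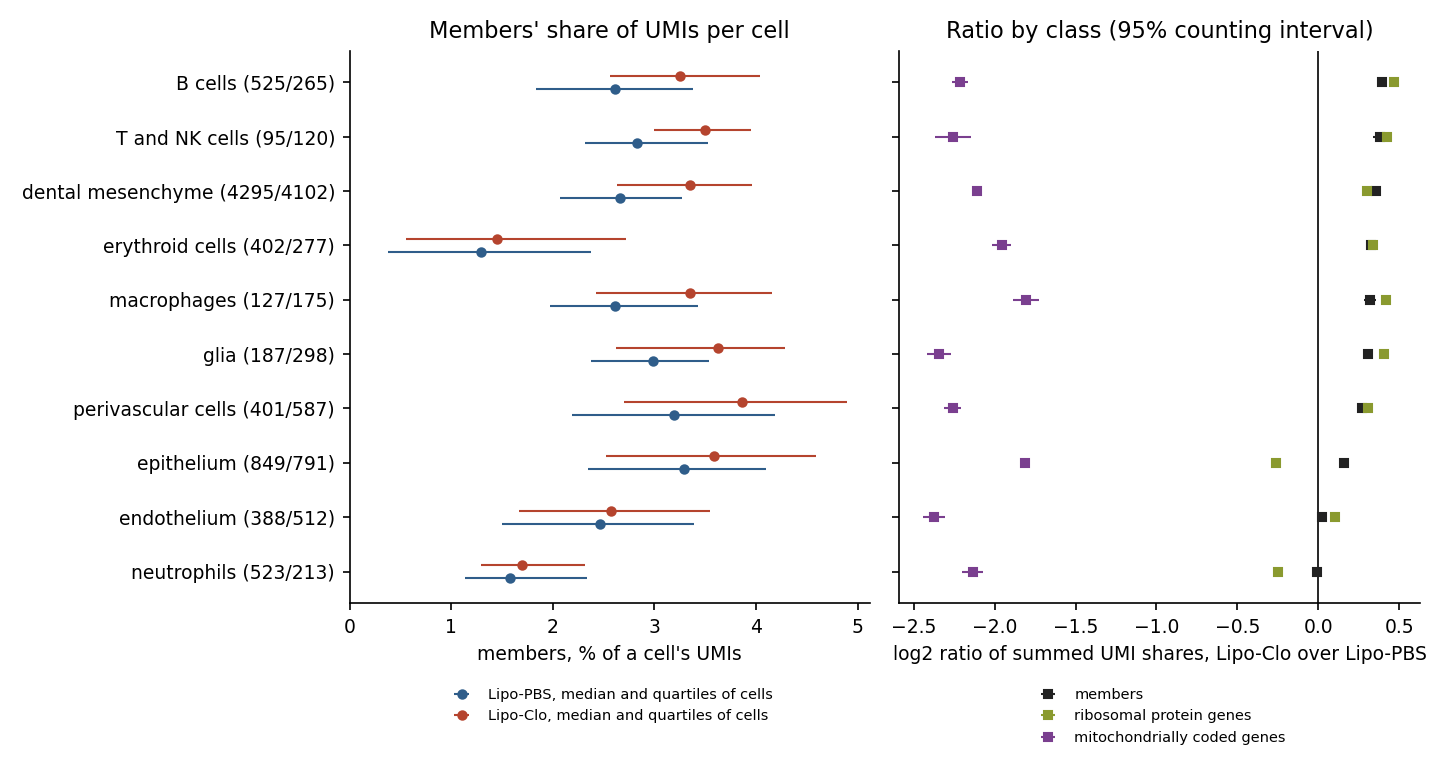
The left panel shows the members' share of a cell's UMIs, in percent, as the median (point) and quartiles (bar) over the cells of each class and library, with cell numbers (Lipo-Clo/Lipo-PBS) beside the class names. The right panel shows the log2 ratio of summed UMI shares, Lipo-Clo over Lipo-PBS, with 95% counting intervals, for members, ribosomal protein genes and mitochondrially coded genes. Members lie above 0 in 9 of 10 classes, mitochondrially coded genes lie below −1.8 in all 10, and ribosomal protein genes lie below 0 in epithelium and neutrophils only.

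Sums over a class mix its cell states, and within clusters the picture was more even in some classes and weaker in others. In 24 clusters with at least 50 cells in each library, the members were higher in Lipo-Clo in 23, each with an interval above 0, and neutrophils, a single cluster, were the exception. The endothelial cluster led by Emcn and Kdr (358 and 366 cells) had a log2 ratio of 0.23 (0.20 to 0.27), against 0.02 for the class, whose other cells, in the cluster led by the lymphatic genes Ccl21a and Lyve1, came mostly from Lipo-PBS. The 3 epithelial clusters had 0.25 (led by Amelx), 0.28 (led by Krt15) and 0.18 (led by Dsc3), each above the class value of 0.16. The 2 erythroid clusters had only 0.09 (led by Ahsp and Slc4a1) and 0.03 (led by Cldn13 and Hemgn), against 0.33 for the class, and the second of these, with the higher member share (3.30% and 3.22%), held 190 cells from Lipo-Clo and 74 from the other library. The erythroid class value therefore rested mostly on the mixture of its clusters.

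Counts of single members also differed between classes. In B cells 38 of 76 members in use were at least 1.3-fold higher in Lipo-Clo, against 24% of all genes in use there, in T and NK cells 43 of 78 against 28.1%, in macrophages 27 of 76 against 21.2%, and in glia 27 of 77 against 20.3%. In perivascular cells 14 of 78 members were past the limit against 15.9% of all genes, and in erythroid cells 22 of 77 against 28.3%, so these shares were near the background. In epithelium 4 of 82 members were past the limit against 16.7% and in endothelium 5 of 75 against 16.2%, both below the background. The 4 of the epithelium were Cox4i2, Cox6b2, Ndufb7 and Ndufaf3, and the 5 of the endothelium Ndufa4, Ndufa8, Ndufc2, Uqcrc2 and Atp5po. In neutrophils 3 of 71 members were higher by 1.3-fold against 10.3% of all genes and 7 were lower against 40.9%. Some members counted as higher were in use through Lipo-Clo only. They include Ndufa10 in B cells and macrophages, Ndufaf2, Ndufaf3 and Ndufv1 in T and NK cells, and Ndufaf3 and Cox6b2 in erythroid cells. The same filter was applied to all genes.

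70 members were in use in all 10 classes, and each was higher in Lipo-Clo in at least 7 of them. 13 were higher in all 10, among them Cox8a, Cox5a, Cox5b, Cox4i1 and Cox7a2 of complex IV, Ndufa13 and Ndufb7 of complex I, Uqcrq of complex III and Atp5f1c and Atp5pb of complex V. Among all genes in use in a class, the share higher in Lipo-Clo ranged from 31.2% in neutrophils to 61.8% in erythroid cells. How many of all genes were higher in as many classes was not counted. In the 8 classes whose summed interval lay above 0, each of the 4 complexes was higher in Lipo-Clo. In epithelium the log2 ratios were 0.17 for complex I, 0.13 for III, 0.19 (0.16 to 0.22) for IV and 0.10 (0.08 to 0.13) for V, so that the intervals of IV and V did not overlap. In erythroid cells those of complex I (0.27, 0.22 to 0.31) and V (0.37, 0.32 to 0.41) did not overlap. That complex V sum includes the inhibitor Atp5if1 (3728 against 1552 UMIs, log2 ratio 0.59), and no sum without it was computed. Both erythroid sums also include the different mixture of erythroid clusters in the 2 libraries. In perivascular cells the log2 ratios were 0.25, 0.24, 0.27 and 0.25, with overlapping intervals. In T and NK cells complex III reached 0.50 (0.35 to 0.64) beside 0.35, 0.34 and 0.40 for complexes I, IV and V, with overlapping intervals. Neutrophils differed, since complex IV was higher in Lipo-Clo (0.11, 0.05 to 0.17), complex I was at 0.00 (−0.05 to 0.05), and complexes III (−0.16, −0.26 to −0.06) and V (−0.08, −0.14 to −0.02) lower. The genes behind this included Atp5if1 (606 UMIs in 523 Lipo-Clo cells, 243 in 213 Lipo-PBS cells, log2 ratio −0.51), the c ring gene Atp5mc1 (513 and 206, −0.51) and the small complex III subunit Uqcr11 (454 and 172, −0.43) on the lower side, and Cox6a1 (288 and 55, 0.56) and Cox5a (876 and 189, 0.38) on the higher side. All genes in use in neutrophils had a median log2 ratio of −0.25, so most genes were lower there.

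**Figure D3:**
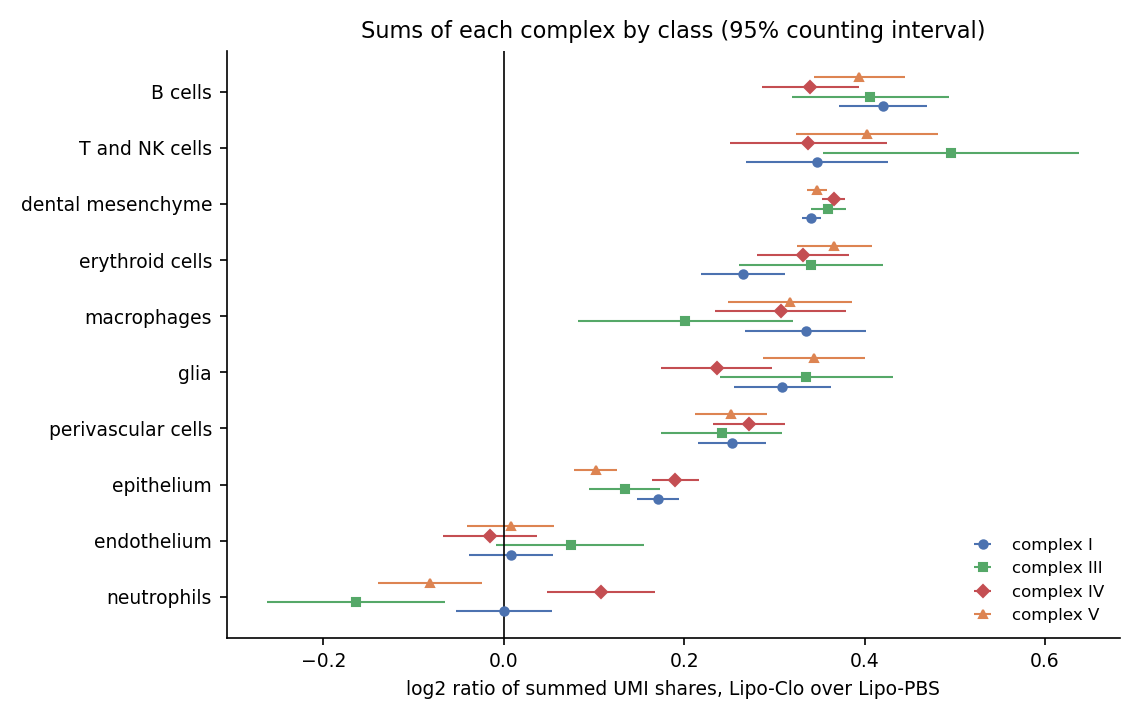
Points show the log2 ratio of summed UMI shares, Lipo-Clo over Lipo-PBS, for complexes I, III, IV and V in each class, and bars show 95% counting intervals. The 4 complexes lie together above 0 in 8 classes, lie around 0 in endothelium and separate in neutrophils, with complex IV above 0 and complexes III and V below it.

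Of these 84, only 3 members stood at least 4-fold above their median class, and all 3 are alternative forms of a subunit at complex IV or of its partner NDUFA4. Cox4i2 encodes the second form of subunit 4, the largest nuclear-coded subunit of the enzyme. With both libraries summed it reached 657 CPM in perivascular cells, 22.5-fold above the median class. Ndufa4l2 reached 941 CPM there, 23.9-fold above its median class. Cox6b2, the form of subunit 6b best known from testis, reached 91.2 CPM in epithelium, 8.06-fold above its median class.

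The perivascular class was named from markers of the pericytes and smooth muscle cells around vessels. In it, Cox4i2 had 737 UMIs (976 CPM) in Lipo-Clo against 669 (483 CPM) in Lipo-PBS (log2 ratio 1.01, 0.86 to 1.17). It supplied 57.9% of all UMIs of the 2 subunit 4 genes in Lipo-Clo and 44.7% in Lipo-PBS, so that about as many subunit 4 UMIs came from Cox4i2 as from Cox4i1. The same share was 15.8% and 11.7% in dental mesenchyme, 19.1% and 10.5% in epithelium, and between 0.901% and 8.26% in the other 7 classes. Cox4i1 itself had a log2 ratio of 0.24 in perivascular cells, 0.40 in dental mesenchyme and 0.11 in epithelium, so the shift lay mostly in Cox4i2. In cells thinned to 1000 UMIs, a Cox4i2 UMI was found in 54.3% of Lipo-Clo and 38.7% of Lipo-PBS perivascular cells, 9.83% and 5.55% of mesenchymal cells and 14.6% and 7.43% of epithelial cells. B cells, which should lack the gene, gave 0.391% and 0.735% (median depths 975 and 1016 UMIs, against 1478 and 1889 in perivascular cells, and 54.3% and 38.7% compare with 64.3% and 50.9% before thinning). These B cell shares were the lowest of the other 7 classes and rest on 1 cell in each library. Among those classes the thinned share ran up to 3.57% in Lipo-Clo T and NK cells and 3.53% in Lipo-PBS neutrophils. Before thinning the shares were 21.8% and 12.8% in mesenchyme, 27.6% and 16.3% in epithelium and 2.48% and 3.02% in B cells. Cells under 1000 UMIs were left out of the thinned shares, 86 and 70 perivascular, 390 and 282 mesenchymal, 138 and 105 epithelial cells and 269 and 129 B cells.

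Within these classes Cox4i2 was concentrated in a few clusters. In dental mesenchyme it reached 382 CPM in the cluster led by Ctnnd2 and Cntn4, 327 in that led by Egfem1 and Lrrc4c and 164 in the odontoblast-like cluster led by Dspp, against 15.4 to 59.6 in the other 7. In epithelium it reached 198 in the cluster led by the enamel genes Amelx and Klk4, against 57.0 and 21.1 in the others. That cluster held 608 of 849 epithelial cells in Lipo-Clo and 336 of 791 in Lipo-PBS. No epithelial value at equal mixture was computed, so the epithelial shares of Cox4i2 include this difference. The 2 mesenchymal subclusters with the highest level were larger in Lipo-Clo, with 485 against 269 cells (led by Lrrc4c) and 404 against 217 (led by Ctnnd2). Within subclusters Cox4i2 was higher in Lipo-Clo in 11 of 12, with 6 intervals above 0, for example 362 against 271 CPM (log2 ratio 0.42) in the Lrrc4c subcluster and 453 against 277 (0.71) in the Ctnnd2 subcluster. Weighted to the same mixture of subclusters, the mesenchymal log2 ratio fell from 0.90 to 0.60. Among perivascular subclusters Cox4i2 was higher in 5 of 5, with 4 intervals above 0 and log2 ratios from 0.40 to 1.22. Their mixture differed between the libraries. The subcluster with Cox4i2 among its leading genes held 163 of 401 Lipo-Clo and 160 of 587 Lipo-PBS perivascular cells, and that led by Sorbs2 and Kcnab1 held 38 and 111. A subcluster led by Omd and Wif1, with the mesenchymal markers Lum and Dcn also leading, held 37 and 81. Another, led by Ighm and the B cell marker Cd79b, held 10 and 9. No perivascular value at equal mixture was computed, so the class ratios of Cox4i2 and Ndufa4l2 include this difference in mixture. A further cluster led by Tm4sf1 and Acta2, with 49 Lipo-Clo and 617 Lipo-PBS cells, was left unnamed because it carried markers of several lineages. It held 5 Cox4i2 UMIs in Lipo-Clo and 242 in Lipo-PBS.

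Ndufa4l2 shared the perivascular peak of Cox4i2 but not its pattern elsewhere. In perivascular cells it had 967 UMIs (1280 CPM) in Lipo-Clo against 1047 (756 CPM) in Lipo-PBS (log2 ratio 0.76, 0.63 to 0.89), while Ndufa4 had 382 and 710 UMIs (506 and 513 CPM) and a log2 ratio of −0.02 (−0.20 to 0.16). Ndufa4l2 thus made up 71.7% of the pair in Lipo-Clo and 59.6% in Lipo-PBS. Perivascular cells were also the class with the lowest Ndufa4 level, 510 CPM with both libraries summed against a median class of 1016. In dental mesenchyme Ndufa4l2 made up 4.83% and 7.23% of the pair, and its level was concentrated in the cluster led by Clec3b and Col14a1, with 203 CPM. The second highest class was epithelium, with 172 and 157 CPM (log2 ratio 0.13, −0.06 to 0.33), where the cluster led by Krt15 held 195 CPM. After thinning, 64.4% of Lipo-Clo and 47.8% of Lipo-PBS perivascular cells had an Ndufa4l2 UMI, against 1.56% and 0.735% of B cells (73.6% and 65.8% against 2.67% and 2.26% before thinning). Outside perivascular cells, mesenchyme and epithelium, the thinned share ran up to 2.52% in Lipo-Clo glia and 3.80% in Lipo-PBS macrophages. In endothelium, where Ndufa4l2 was not in use, it was lower in Lipo-Clo at 8 and 66 UMIs (log2 ratio −1.99, −3.26 to −0.93). Before thinning, 7.42% of Lipo-PBS endothelial cells had a UMI of it, near the 8.30% of erythroid and 7.50% of T and NK cells. Neutrophils, at 20 and 16 UMIs, were also lower (−1.51, −2.53 to −0.46). The endothelial ratio includes the lymphatic cluster, with 30 Lipo-Clo and 146 Lipo-PBS cells.

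Cox6b2 was highest in epithelium, with 309 UMIs (116 CPM) in Lipo-Clo against 173 (66.2 CPM) in Lipo-PBS (log2 ratio 0.81, 0.54 to 1.09). It made up 9.0% and 6.14% of the UMIs of the 2 subunit 6b genes there. Nearly all of it lay in the enamel cluster led by Amelx, with 458 UMIs in both libraries together and 179 CPM. That cluster held 608 of 849 epithelial cells in Lipo-Clo and 336 of 791 in Lipo-PBS. The epithelial ratio and shares of Cox6b2 include this difference in mixture, since no value at equal mixture was computed. Erythroid cells were second, with 85 and 35 UMIs (50.2 and 33.1 CPM), 7.17% and 5.88% of the pair of genes. After thinning, 12.7% of Lipo-Clo and 7.14% of Lipo-PBS epithelial cells had a Cox6b2 UMI, against 1.95% and 2.21% of B cells (25.1% and 16.3% against 1.71% and 2.64% before thinning). Outside epithelium the thinned share ran up to 3.17% in Lipo-Clo erythroid cells and 3.29% in Lipo-PBS perivascular cells.

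**Figure D4:**
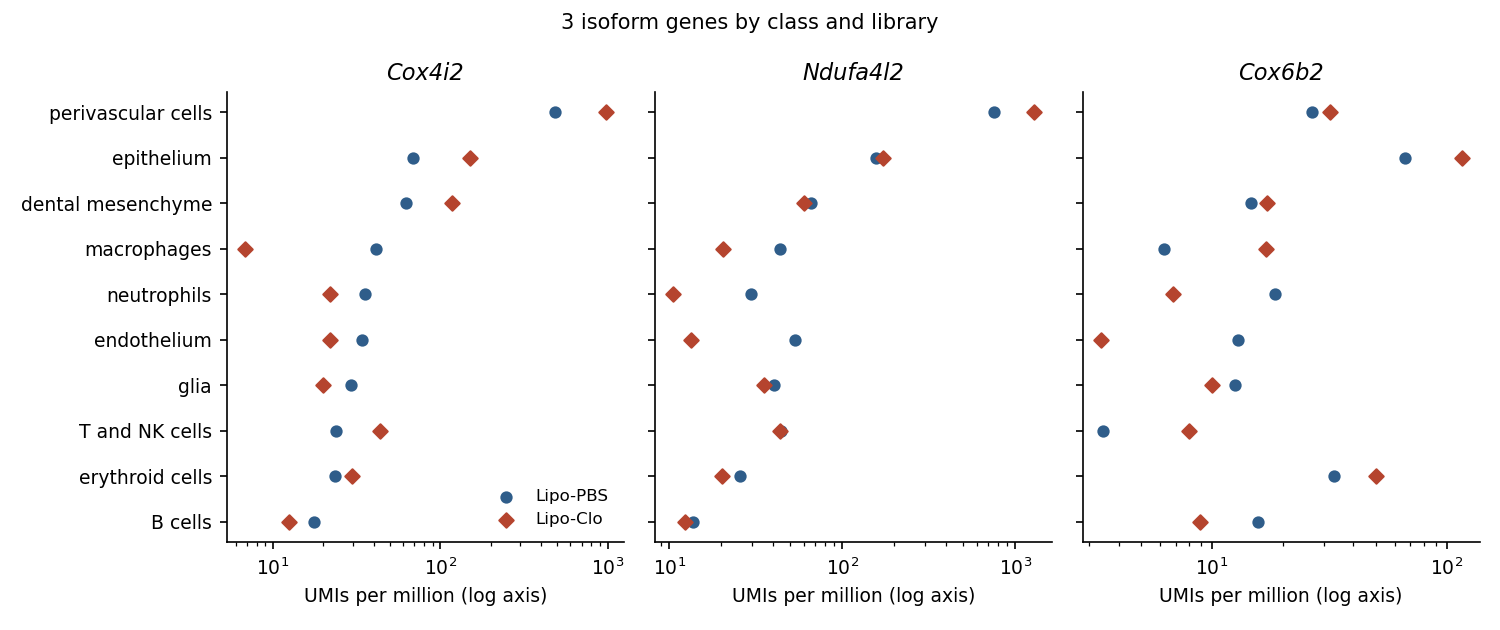
Each panel shows 1 gene, with its CPM on a log axis for Lipo-PBS (circles) and Lipo-Clo (diamonds) in the 10 named classes. Cox4i2 and Ndufa4l2 peak in perivascular cells at 976 and 1280 CPM in Lipo-Clo, Cox6b2 peaks in epithelium at 116, and outside dental mesenchyme, epithelium and perivascular cells most levels rest on few UMIs.

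Atp5if1 had a profile of its own without passing the 4-fold mark. It was highest in erythroid cells, where it is known to be needed for heme synthesis, at 1920 CPM with both libraries summed, 2.73-fold above the median class. There it had 3728 UMIs (2203 CPM) in Lipo-Clo against 1552 (1467 CPM) in Lipo-PBS (log2 ratio 0.59, 0.50 to 0.67). This class ratio includes the different mixture of erythroid clusters in the 2 libraries, and no ratio within those clusters is given here. Atp5if1 was lowest in neutrophils, with 317 and 452 CPM and the opposite direction (−0.51, −0.73 to −0.29). In the other classes the log2 ratio ranged from −0.12 in endothelium (−0.30 to 0.06) to 0.54 in B cells (0.31 to 0.77).

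Subunits of the same complexes that are made from mitochondrial DNA went the other way. In dental mesenchyme all 12 mitochondrially coded genes in use were lower in Lipo-Clo, their sum at 55215 against 223327 UMIs (log2 ratio −2.11, −2.12 to −2.09). The complex IV gene mt-Co1 had 7998 against 39104 UMIs (log2 ratio −2.38), the complex III gene mt-Cytb 10244 against 35315 (−1.88) and the complex V gene mt-Atp6 9436 against 30127 (−1.76). The sum was lower in 10 of 10 classes, by 3.50-fold to 5.19-fold, neutrophils and endothelium included, and in 24 of 24 clusters. Ribosomal protein genes, which are nuclear, short and abundant like the members but have no part in respiration, were higher in Lipo-Clo in 8 of 10 classes and in 22 of 24 clusters. In dental mesenchyme all 83 in use were higher, with a median log2 ratio of 0.31 and 10 past the limit. In neutrophils ribosomal protein genes were lower (−0.25) while the members were level. The class sum of epithelium was also lower for ribosomal protein genes (−0.26), but in each of its 3 clusters they were higher (0.02, 0.18 and 0.12), and the libraries held these clusters in different proportions. With mitochondrially coded, haemoglobin and ribosomal protein genes left out of the totals, the members' log2 ratio in dental mesenchyme was 0.33 in place of 0.35. These sets of genes were left out together, so this gives no value for the mitochondrially coded genes alone. What the mitochondrial share of the libraries has to do with the members' difference was not tested.

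Members have short transcripts, with a median length of 645 bases (GENCODE, 79 of 80 in use with a length) against 1984 for the other genes in use, and short transcripts were higher in Lipo-Clo as a whole. Below 700 bases the median log2 ratio was 0.36 for 42 members and 0.20 for 361 other genes without ribosomal protein genes. From 700 to 1000 bases it was 0.35 for 20 members and 0.23 for 648 others, and from 1000 to 1500 bases 0.30 for 12 members and 0.17 for 660 others. From 1500 to 2500 bases the medians were 0.39 for 3 members and −0.03 for 986 others, and above 2500 bases 0.33 for 2 members and −0.19 for 1838 others. Among genes under 1000 bases with over 10000 UMIs, 34 members had a median of 0.36 and 109 others 0.26. Under 1500 bases, where 74 of the 79 members lay, the members thus stood above other genes of like length by a smaller step than above all genes, and the step was larger in the bins of 3 and 2 members. Ribosomal protein genes, left out of these others, lay closer to the members. Their medians were 0.32 below 700 bases (40 genes), 0.31 from 700 to 1000 (27) and 0.29 from 1000 to 1500 (11). Under 1000 bases with over 10000 UMIs, 65 ribosomal protein genes had a median of 0.32.

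The difference between the libraries also depended on how many mitochondrial UMIs a cell carried. Among mesenchymal cells with under 0.25% mitochondrial UMIs the members held 3.72% of UMIs in Lipo-Clo (1745 cells) and 2.42% in Lipo-PBS (45 cells). From 0.5% to 1% they held 3.39% (912 cells) and 2.84% (568 cells). From 1% to 2%, where most Lipo-PBS cells lay, they held 2.90% (463 cells) and 2.85% (2133 cells), a log2 ratio of 0.02 (0.005 to 0.04). From 2% to 20% they held 2.35% (185 cells) and 2.63% (1244 cells), a log2 ratio of −0.16 (−0.21 to −0.12). The ratio was thus smaller in bins with more mitochondrial UMIs. The members were slightly higher in Lipo-Clo from 1% to 2% and lower from 2% to 20%. In those last 2 bins the Lipo-Clo cells were also shallower, with medians of 1570 and 969 UMIs against 3343 and 2387. Below 0.25% and from 0.25% to 0.5% the Lipo-Clo cells were deeper, with medians of 3620 and 3232.5 UMIs against 2355 and 2398.5. From 0.5% to 1% they were shallower, with 2444.5 against 3072.

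**Figure D5:**
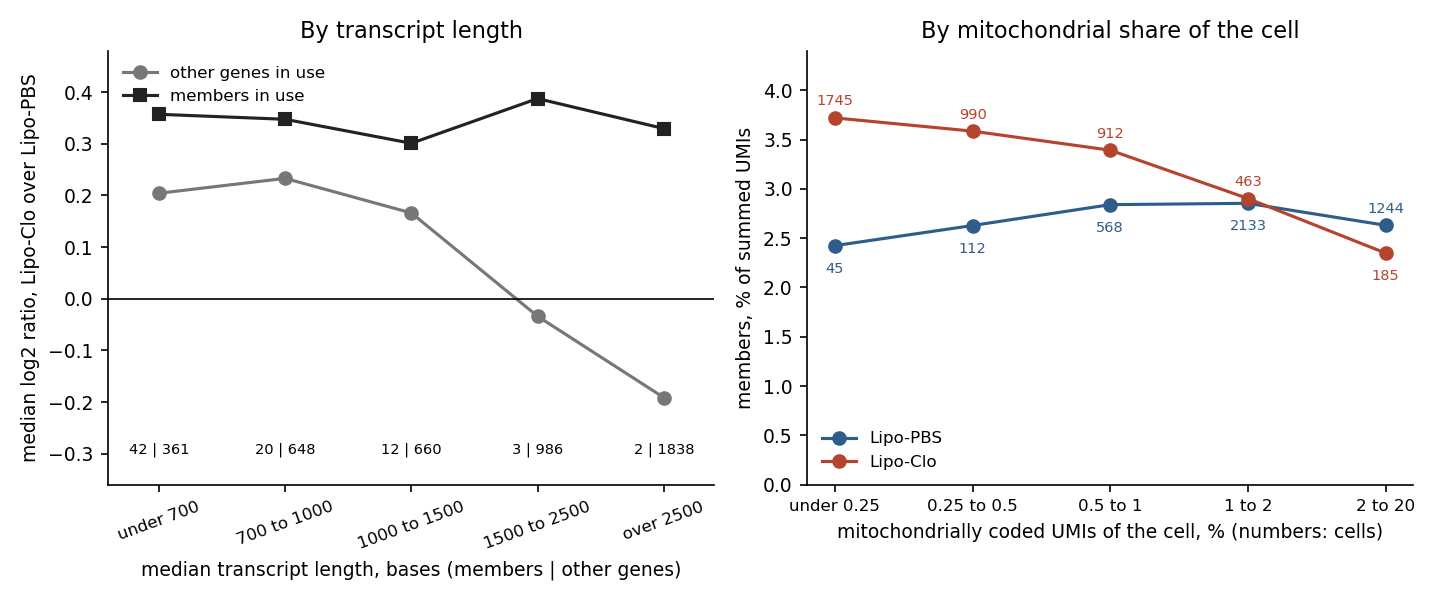
The left panel shows the median log2 ratio, Lipo-Clo over Lipo-PBS, of members and of other genes in use in dental mesenchyme by transcript length in bases, with numbers of genes at the foot (members, other genes). The right panel shows the members' percent of summed UMIs in mesenchymal cells binned by their own mitochondrially coded UMIs, with cell numbers at the points. Members lie above other genes (without ribosomal protein genes) in each length bin, of which the last 3 hold 12 members or fewer, and the 2 libraries meet in cells with 1% to 2% mitochondrial UMIs.

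Other genes of mitochondria and of energy metabolism gave a mixed picture in dental mesenchyme. Of the 4 genes of complex II, which has no mitochondrially coded subunit, Sdhb was past the limit (3062 against 2062 UMIs, log2 ratio 0.48) and the other 3 lay between 0.10 and 0.29. Both the electron carrier Cycs (4569 against 2882 UMIs, 0.57) and cytochrome c1, Cyc1 (1806 against 1219, 0.48), were past it. Of 9 assembly and copper-delivery genes of complex IV in use, Cox20, Coa3 and Cox19 were higher by the limit (0.49, 0.46 and 0.39) and Cox16 lower (364 against 483 UMIs, −0.50). Of 4 assembly genes of complexes III and V in use none was past it. Among 12 regulators of mitochondrial biogenesis only Yy1 was in use, and it was lower in Lipo-Clo (807 against 1017 UMIs, −0.42). Nrf1, at 422 and 425 UMIs, gave −0.10 (−0.30 to 0.10), and Ppargc1a had 22 UMIs in each library.

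In the pathways that feed the chain, 1 of 12 genes of the citric acid cycle in use (Mdh2, log2 ratio 0.45) and 3 of 12 glycolytic genes in use (Ldhb 0.63, Gapdh 0.46 and Pgam1 0.45) were past the limit upward and none downward. Of 10 genes of mitochondrial membrane transport and structure in use, Chchd6 was past it (0.46). Chchd10 of the same list was not in use, with 291 against 826 UMIs (log2 ratio −1.60, −1.79 to −1.40). Of 3 genes of the response to low oxygen in use, P4ha1 was lower (1126 against 1524 UMIs, −0.53) and Vegfa and Mt1 had log2 ratios of −0.31 and −0.33.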

How the data were processed

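Both libraries, 1 per condition, were deposited by the authors as matrices of raw UMI counts per gene and cell, not normalized. The file headers name Cell Ranger 8.0.0, while the submitters' processing notes list Cell Ranger 3.1.0, Seurat 3.1.1 and the build GRCm39, and the files do not settle which was used. Cells with fewer than 200 genes (473 and 748) or over 20% mitochondrial UMIs (3 and 11) were removed. Scrublet's automatic threshold marked 0 and 1 cells, and therefore the top scores were taken as doublets and removed instead, at 0.8% per 1000 cells (632 and 633).

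Cells were clustered with scanpy 1.11.5 (2000 variable genes, 30 components, 20 neighbours, Leiden resolution 1) and clusters were named from fixed markers (at least 3). The detailed rule for naming was settled after the data were seen, and unnamed clusters entered no class. Median depth per cell was 2567 and 2678 UMIs. UMIs were summed per class and library and divided by the class total. Ratios have exact conditional binomial (Clopper-Pearson) intervals, computed with scipy 1.17.1, shares have exact binomial intervals, and both cover counting error only. The ratio step was tested on simulated data. A gene was in use in a class where 10% or more of its cells in either library had a UMI of it. Members and gene lists were chosen with earlier results of these data known. Named genes were, per complex, the 3 members with most UMIs in dental mesenchyme and the 2 highest and 2 lowest ratios, all paralog sets, Atp5if1 and members at least 4-fold above their median class. Others were chosen after their values were seen. Alternatives covered scaling (edgeR 4.0.16 TMM and DESeq2 1.42.0 size factors), filters, thinning, clustering, mixture and limit. Results for some items are not reported here.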

Additional observations from a re-analysis of the deposited data

Results flagged for a closer look

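In neutrophils, complex III had a summed log2 ratio of −0.16 (Lipo-Clo over Lipo-PBS) and complex V of −0.082, with intervals for counting error below 0. The complex V sum includes the inhibitor Atp5if1 (606 against 243 UMIs, log2 ratio −0.51), and no sum without it was computed. All genes in use in neutrophils had a median log2 ratio of −0.25, below the sums of both complexes. In dental mesenchyme both complexes had ratios above 0, at 0.36 and 0.35. Both were singled out because the direction was opposite in the 2 cell types. With 1 library per condition the difference was not tested.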

How the results depend on the processing

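No paired analysis was possible because Lipo-Clo and Lipo-PBS are single libraries. In dental mesenchyme the number of members at least 1.3-fold higher, 27, changed to 15 with totals that leave out mitochondrial, haemoglobin and ribosomal protein genes, 10 with the mean over cells, 43 of 81 in cells with at most 1% mitochondrial UMIs, 17 of 64 in cells thinned to 1000 UMIs, 11 and 11 with the same mixture of subclusters (the second formed without the members) and 41 with TMM factors. It was 2 at a limit of 1.5-fold, where 0.95% of all genes in use were that much higher, and 0 at 2-fold, where 0.15% were. Members lower by the limit were 0 under all alternatives run. The summed log2 ratio, 0.35, was 0.33 with the reduced totals, 0.29 with the mean over cells, 0.37 in cells with at most 1% mitochondrial UMIs, 0.33 thinned, 0.36 at Leiden resolution 2, 0.32 and 0.31 with the same mixture and 0.39 with TMM. In the same order (without the Leiden setting), complex I gave 0.32 and 0.28, then 0.31 thinned, 0.31 and 0.31 with the mixture and 0.38 with TMM. Complex III gave 0.33, 0.31, 0.41 in cells with at most 1%, 0.33 and 0.32 with the mixture and 0.40. Complex IV gave 0.34, 0.30, 0.39, 0.33 and 0.32 with the mixture and 0.41. Complex V gave 0.32, 0.29, 0.40, 0.30 thinned, 0.31 and 0.30 with the mixture and 0.39. Ndufa4l2, at −0.15, turned to 0.11 thinned and to 0.23 and 0.27 with the mixture, and the cause was not tested. Cox4i2 kept its direction, with 0.60 and 0.58 under the mixture. The setting of at most 1% mitochondrial UMIs and the mixture formed without the members were chosen after seeing the data. The median log2 ratio of all genes, −0.01, was 0.13 in cells with at most 1% mitochondrial UMIs and 0.10 on thinning. The split of all genes past the limit, 9.2% higher and 14.3% lower, became 13.8% and 11.7% with TMM and 25.6% and 12% in cells with at most 1%. It was 6.96% and 15.9% with the reduced totals, 7.49% and 9.31% with the mean over cells and 11.9% and 12.1% thinned. Under the same mixture it was 6.16% and 13.7%, and 6.1% and 13.7% where the subclusters were formed without the members. With 1 library per condition, no spread between animals is known, and low-count forms such as Cox6a2 and Cox7a1 rest on few UMIs.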

Other observations

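Cox6a2, the form of subunit 6a best known from heart and skeletal muscle, was scarce in every class but concentrated in few cells. 19 cells with at least 3 Cox6a2 UMIs held 160 UMIs, up to 26 in 1 cell, and 9 of them came from Lipo-Clo and 10 from Lipo-PBS. 12 of the 19 lay in an unnamed cluster led by Cd74 and Ms4a6c and 4 in T and NK cells. A UMI of Siglech, a lectin of plasmacytoid dendritic cells, was found in 13 of the 19 (68.4%) and of the surface protein gene Bst2 in 18 (94.7%), against 0.116% and 13.8% of the 16438 cells without a Cox6a2 UMI. Both genes were chosen after their values were seen.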
